A study of Mus musculus with 16 samples.

Results

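The 264 mouse genes described here carry the Zfp (zinc finger protein) prefix followed by a number and were expressed in adipose tissue at room temperature. They are the rows of the deposited matrix of 17883 genes whose symbol starts with Zfp and a digit and whose RPKM (reads scaled by gene length and by library size) was 2 or more in both input RNA libraries of wild-type mice at room temperature. The matrix held 385 such symbols, so 121 fell under the threshold. The lowest members were Zfp354c (2.109 and 2.004 RPKM), Zfp109 (2.24 and 2.03) and Zfp456 (2.19 and 2.03). The nearest genes left out were Zfp979 (2.34 and 1.98), Zfp61 (2.29 and 1.96) and Zfp759 (2.37 and 1.86). The members were thus chosen by their room-temperature input values, and every comparison with those libraries is given as a description, with no test. Those libraries did enter the fits of input and m6A, where they shared in the estimate of spread behind the cold tests.

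The study asked how METTL3, the catalytic subunit of the complex that writes N6-methyladenosine (m6A) on mRNA, acts in the beiging of white fat. All mice were C57BL/6, 8 weeks old and homozygous for a floxed METTL3 allele. The wild-type group (WT) carried no Cre, and the knockout group (cKO) carried 1 copy of Adipoq-Cre, a transgene driven by the adiponectin promoter and so active in adipocytes and not in the other cells of the tissue. WT mice at room temperature (WT RT) were untreated, whereas WT cold and cKO cold mice were housed singly at 4 °C for 7 days. The tissue is labelled adipose, with no depot named. Input RNA and m6A-precipitated RNA were sequenced in all 3 conditions, and ribosome footprints in the 2 cold conditions, with 2 libraries per group and 16 in all. Nothing in the labels ties replicates to different animals; each p-value below speaks of library-to-library spread alone, part of which may be technical.

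Most Zfp genes encode proteins with C2H2 zinc fingers, in which tandem fingers read DNA sequence. The largest class adds a KRAB domain, which recruits TRIM28 and histone methyltransferases to silence retroelements and imprinted regions, and many of its genes lie in clusters that arose by tandem duplication. The prefix is a nomenclature label, however, and it also covers proteins that are not transcription factors. Zfp36, Zfp36l1 and Zfp36l2 have CCCH fingers and bind AU-rich mRNA, Zfp598 is a ubiquitin ligase at collided ribosomes, Zfp622 acts in maturation of the large ribosomal subunit, and Zfp185 is a LIM-domain protein of the actin cytoskeleton. All 264 symbols were listed as protein-coding in RefSeq. The group is therefore called Zfp genes below, not transcription factors.

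Reads assigned to genes, recovered from the steps of the RPKM values, came to between 3895031 and 8673393 per input library and between 4883129 and 6426541 per m6A library. Footprint libraries held at least 1676208 to 2461267. Mettl3 itself was at 5.24 and 3.66 RPKM in WT cold input and at 3.83 and 1.90 in cKO cold input, so the 2 groups overlapped in this whole tissue. In the precipitate the same gene was at 4.23 and 2.69 against 5.37 and 2.33, and in footprints at 4.60 and 4.82 against 8.99 and 5.22, so both footprint libraries labelled cKO lay above both labelled WT cold. Gene-level RPKM does not show which exons were read, and the deleted exons are not given in the sources used here; cKO below means the libraries labelled so. Adipocyte markers (6 of 6 at 1 RPKM or more in every group) summed to between 9522 and 9742 RPKM in WT cold input and to between 7610 and 8546 in cKO cold input. Library codes of the room-temperature samples come from a different run of numbers than those of the cold samples, and the effect of temperature cannot be told apart from it.

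The median Zfp gene lay slightly above the median gene of the matrix in input RNA, though the matrix as a whole passed no threshold. In WT RT input the member median was 6.40 and 5.56 RPKM, beside 5.38 and 5.16 over all genes. The WT cold median was 3.15 and 2.72, beside 2.60 and 2.25. The cKO cold median was 4.65 and 4.38, beside 3.99 and 3.78. They took 1.08% and 1.01% of assigned reads at room temperature, 0.552% and 0.479% in WT cold mice, and 0.750% and 0.739% in cKO cold mice. A median member had 101 and 43 input reads in the WT cold libraries, and only 9 and 6 footprint reads in the matching footprint libraries. Footprint values of single members are therefore coarse.

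The most abundant members in WT cold input were Zfp36l1 (68.5 and 49.5 RPKM), Zfp207 (57.6 and 44.3), which encodes a kinetochore and spindle protein, and Zfp91 (53.9 and 42.6), which encodes a ubiquitin ligase of noncanonical NF-kB signalling. None of these is a KRAB protein. On the log2(RPKM + 1) scale, most members had less input RNA in WT cold than at room temperature, with a median difference of -0.87 beside -0.67 over all genes. The difference was below 0 in 249 of 264 members (94.3%) and in 81.2% of all genes; since the room-temperature values chose the members, nothing is read from these shares. The T and B cell markers (13 genes) summed to between 795.7 and 840.3 RPKM in WT RT input and to between 2.01 and 2.26 in WT cold, with Cd79a at 0 in both WT cold inputs. Macrophage markers summed to between 735.1 and 797.9 against 134.3 to 143.8, and fibroblast and preadipocyte markers to between 2130 and 2173 against 561.2 to 794.9. Adipocyte markers went the other way, from between 4311 and 4431 at room temperature to between 9522 and 9742 in WT cold. The part of these shifts in the lower Zfp levels was not tested. In bulk tissue, fewer cells of a type and less RNA per cell cannot be told apart.

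The 5 members of distal mouse chromosome 2 are Zfp966, Zfp973, Zfp970, Zfp971 and Zfp931, within 175918283 to 178078425 of GRCm38.p6. Chosen after their values were seen, they are shown first by sequence, because their promoters are near copies and their library values are described together. The 10 pairs of their RefSeq promoters (250 bases before to 50 after the start) were 93.9% to 99.6% identical over 230 to 295 aligned bases. The promoter of Zfp503 on chromosome 14, aligned in the same way, was 42.3% to 46.8% identical to them. The following stretches, 5′ to 3′ on the gene's strand from RefSeq GRCm38.p6, hold the CCAAT box nearest the start site in capitals.
Zfp966: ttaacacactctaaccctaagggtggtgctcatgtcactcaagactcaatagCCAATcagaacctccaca
Zfp973: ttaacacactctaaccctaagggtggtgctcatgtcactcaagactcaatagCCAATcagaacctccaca
Zfp970: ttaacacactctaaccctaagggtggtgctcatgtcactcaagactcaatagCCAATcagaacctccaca
Zfp971: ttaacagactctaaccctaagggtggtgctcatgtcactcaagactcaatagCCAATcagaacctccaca
Zfp931: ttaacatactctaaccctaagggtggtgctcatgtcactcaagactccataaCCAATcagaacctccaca
They lie at chr2:175931147-175931216 (minus strand), chr2:176670432-176670501 (plus), chr2:177464621-177464690 (plus), chr2:178023154-178023223 (plus) and chr2:178078516-178078585 (minus), in the order listed. The first 3 stretches are letter for letter the same.

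Across the family, 220 of 264 members had a promoter in the RefSeq table, which holds 27025 genes. CCAAT or its reverse complement ATTGG was present in 112 of 220 members' promoters (50.9%) and in 37.9% of all promoters. GGGCGG or CCGCCC, the GC box, was present in 110 (50%) against 35.9%, and CCGGAA or TTCCGG, the core of ETS sites, in 85 (38.6%) against 15.2%. The median number of CG dinucleotides was 15 in members and 7 in all promoters. All 5 chromosome 2 promoters held CCAAT or ATTGG and none held the GC box, and they had 3 to 5 CG dinucleotides. The Zfp503 promoter held no CCAAT or ATTGG and 19 CG dinucleotides. A match is a description of the letters and was not tested against binding. All promoters were counted without regard to expression, whereas the members had passed the room-temperature threshold. The values for members and for all promoters are thus not matched for expression.

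In the libraries, Zfp970 had 9.54 and 9.13 RPKM at room temperature. WT cold mice had 22.5 and 25.6 and cKO cold mice 18.1 and 19.5. Its cold values were thus all above its room-temperature values, unlike those of most members. Zfp931 was at 5.50 and 3.37, then 8.75 and 7.70, then 5.07 and 7.20. Zfp966 was at 5.53 and 5.93, then 5.81 and 7.87, then 6.56 and 5.24. Zfp971 was at 14.7 and 15.3, then 18.5 and 9.85, then 13.6 and 19.8, with overlapping groups. Zfp973, with 6 and 3 reads in single cold libraries, was too shallow to place. Footprints were listed at 0 in all 4 libraries for Zfp966, Zfp973 and Zfp931, and were 0.256, 0, 0 and 0.483 RPKM for Zfp970, in the order WT cold, then cKO cold. The transcripts of these genes were not compared. If they are as alike as the promoters, the counting can split reads between them, so single values within the group are uncertain.

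**Figure D1:**
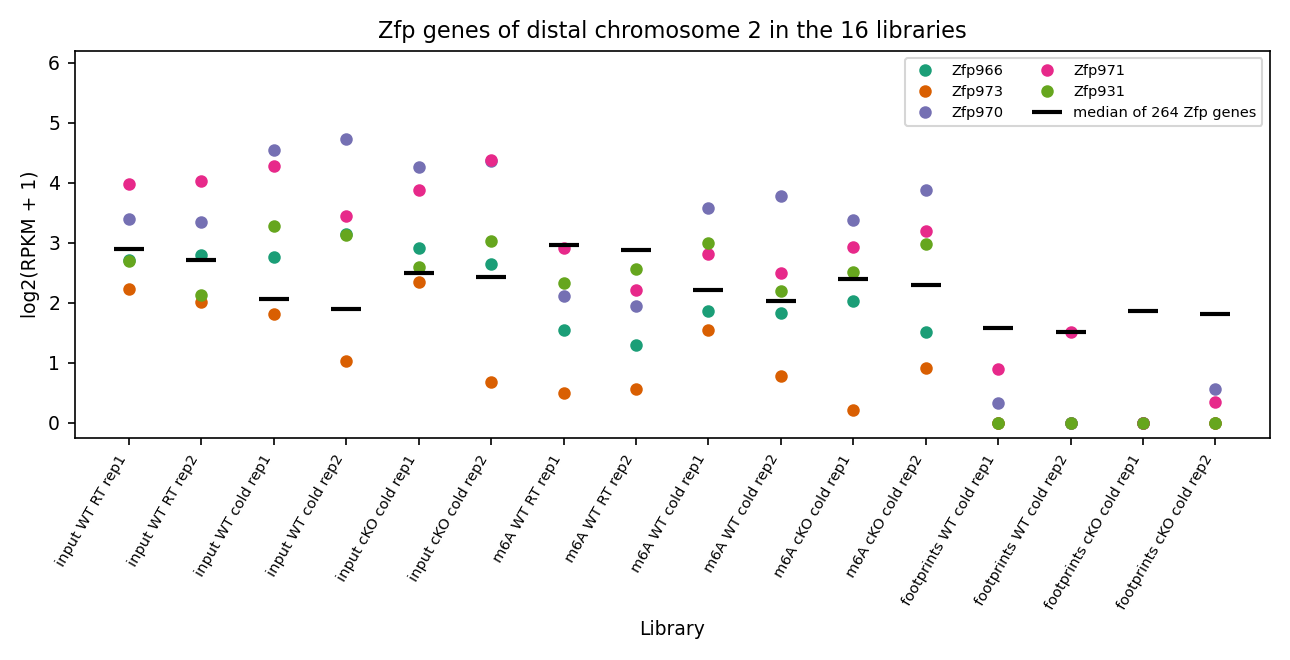
Levels of the 5 Zfp genes of distal chromosome 2 in each of the 16 libraries, as log2(RPKM + 1) on the vertical axis, with a black bar for the median of the 264 Zfp genes. Zfp970 lies above the family median in every input library, and all but Zfp971 lie below a log2 value of 1 in every footprint library.

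Next, the precipitate was compared with the input of the same condition. m6A over input is the difference of mean log2(RPKM + 1) between the 2 m6A libraries and the 2 input libraries, so 0 means an equal share of reads in both and says nothing of the fraction of molecules modified. In WT cold, 71 of 264 Zfp genes (26.9%) were higher in the precipitate and 27 (10.2%) lower by limma's adjusted p, where 13.7% of all genes tested were higher and 25.6% lower. Among genes that passed the same room-temperature threshold, 15.1% were higher and 29.1% lower. The median over the members was 0.19, and -0.11 over all genes. The Zfp genes thus leaned to the precipitate where genes in general leaned to the input. Fitted on the compared libraries alone, 40 passed as higher, and without WT cold input replicate 2 or m6A replicate 1, 46 and 44. Median-ratio scaling moved the median of all genes from -0.11 to -0.0015 and called 94 members higher and 23 lower, beside 19.1% and 21.6% of all genes. Quantile scaling called 97 and 19, beside 19.1% and 19.3%, so all genes no longer leaned to the input there, and the member medians were 0.34 and 0.38.

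In cKO cold, 43 members (16.3%) were higher in the precipitate and 46 (17.4%) lower, beside 11.4% and 35.2% of all genes, and the medians were -0.01 and -0.30. With median-ratio scaling, which moved the median of all genes from -0.30 to 0.01, 84 were higher and 21 lower, beside 20.8% of all genes each way; with quantile scaling, 93 and 17, beside 20.8% and 21.7%. Without cKO m6A replicate 1, 26 were higher, and without replicate 2, 29 were lower. The libraries behind the WT cold and cKO cold values are separate, but both sets of calls use the same estimate of spread per gene. The calls in the conditions are thus not independent. Of the 71 genes higher in WT cold, 38 (53.5%) were also called in cKO cold, which is 88.4% of the 43 called there. Of the 27 lower, 21 (77.8%) were also lower in cKO, 45.7% of its 46. Over the 264 members, the 2 sets of values had Pearson's r of 0.80 and Spearman's rho of 0.78, and over all genes at the same threshold 0.88 and 0.87. In WT RT, whose input the rule used, the member median was 0.10 and that of all genes -0.25.

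**Figure D2:**
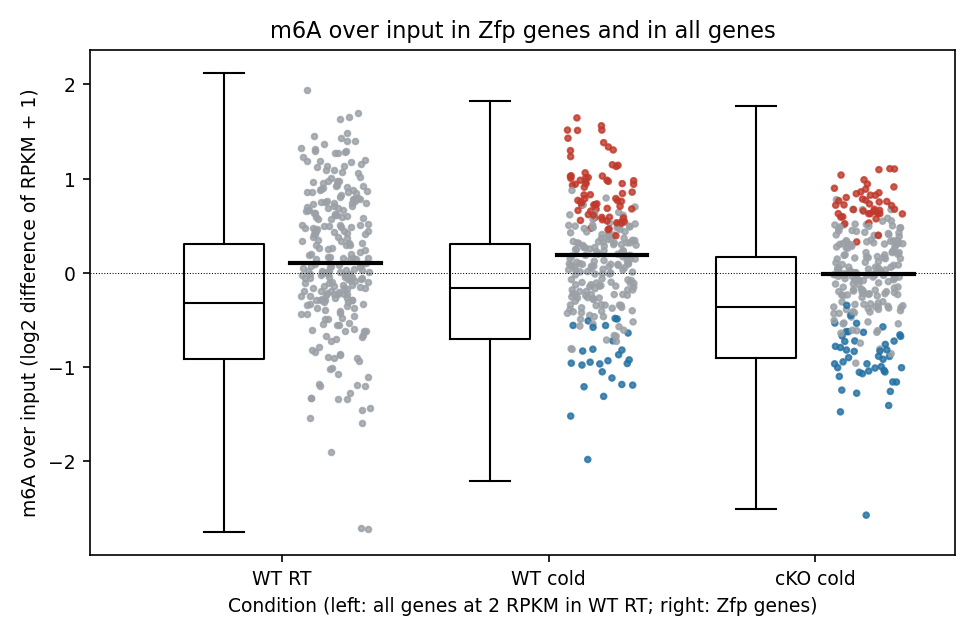
m6A over input, as the log2 difference of RPKM + 1, in WT RT, WT cold and cKO cold. Boxes give the median, quartiles and whiskers (1.5 interquartile ranges, outliers not drawn) of genes at 2 RPKM or more in both WT RT inputs; each point is 1 Zfp gene, with a black bar for the median, red and blue for higher and lower by adjusted p in the cold conditions and grey otherwise. The Zfp medians (0.10, 0.19 and -0.01) lie above those of the boxes.

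Among single members, Zfp646 had 4.86 and 6.26 RPKM in WT cold input and 17.01 and 16.13 in the precipitate. The groups did not overlap, and the difference was 1.43 ± 0.14 (SE; limma adjusted p = 4.77e-05). In cKO cold its values were 10.1 and 10.5 against 23.4 and 20.9, a difference of 1.04 ± 0.14 (adjusted p = 0.000216). Zfp830, a splicing factor, rose in the precipitate from 6.23 and 5.93 to 16.9 and 21.9 in WT cold (1.51 ± 0.18) and from 9.75 and 10.3 to 24.7 and 20.6 in cKO cold (1.10 ± 0.18). Zfp839 gave 1.52 ± 0.20 and 0.86 ± 0.20. Zfp821 gave 1.64 ± 0.23 and 0.90 ± 0.23, on 10 and 4 input reads in WT cold. Its cKO cold call was lost in 3 of 11 alternatives. These were the compared libraries alone (limma adjusted p = 0.0557), m6A replicate 1 left out (0.76) and input replicate 2 left out (0.56). Zfp688, at 1.51 ± 0.52 in WT cold (adjusted p = 0.0418), was at 0.34 ± 0.52 in cKO cold, where it did not pass. Its WT cold value rests on 3 and 8 input reads; it was 0.99 (adjusted p = 0.235) without input replicate 1 and 0.76 with a pseudocount of 4, and the call was lost in 5 of 11 alternatives.

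At the other end, Zfp277 had 11.7 and 9.21 RPKM in WT cold input but 1.49 and 2.36 in the precipitate, a difference of -1.98 ± 0.26 (limma adjusted p = 0.00023). In cKO cold, 23.7 and 14.4 fell to 2.59 and 2.01, or -2.57 ± 0.26 (adjusted p = 3.83e-05). The room-temperature values, 21.7 and 19.9 against 1.93 and 2.77, were spaced likewise. Zfp488 gave -1.52 ± 0.25 in WT cold and -1.24 ± 0.25 in cKO cold, Zfp950 gave -1.31 ± 0.22 and -1.41 ± 0.22, and Zfp942 gave -1.18 ± 0.27 and -1.26 ± 0.27. Zfp266 gave -0.96 ± 0.21 and -1.47 ± 0.21, and Zfp938 gave -0.98 ± 0.22 and -1.16 ± 0.22. All of these passed in both conditions. Zfp24 (-0.45 ± 0.19 in WT cold, -1.28 ± 0.19 in cKO cold) and Zfp788 (-0.46 ± 0.19, -1.16 ± 0.19) passed in cKO cold and not in WT cold, though Zfp788 did without WT cold m6A replicate 2 (-0.67, adjusted p = 0.0408); their difference between conditions did not pass.

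m6A over input also differed by position. With genes joined where less than 1 Mb apart, 130 of 264 members lay in 18 groups of 4 or more. The groups were drawn after the values were seen, so they are described and not tested. In the group on chromosome 7 from 127233061 to 127885996 (Zfp553 to Zfp646), 8 of 9 members were higher in the WT cold precipitate and 4 in cKO cold, with medians of 0.83 and 0.55. In the group at 4915181 to 5053723 of the same chromosome (Zfp628, Zfp579, Zfp524, Zfp865 and Zfp580), 4 of 5 and 3 of 5 were. Other chromosome 7 groups varied. Those starting at 24081877 and 29768552 had WT cold medians of 0.84 and 0.51. Those starting at 6131489, 12803778, 27731409 and 41633531 had medians of 0.05, -0.07, -0.22 and -0.12. Of the 59 members on chromosome 7, 26 were higher in WT cold and 1 lower; of the 776 other chromosome 7 genes at the same threshold, 147 (18.9%) were higher. The 16 members at 67069398 to 67827000 of chromosome 13, a cluster of tandem copies, had none higher and 2 lower (median -0.23). The 393 other chromosome 13 genes at the same threshold had a median of -0.29, with 48 (12.2%) higher. The cluster median was thus close to that of its chromosome. Of all genes at that threshold, 29.1% were lower. The chromosome 2 group had none higher and 3 lower in both cold conditions, with a median of -0.96 in each. In WT cold the lower ones were Zfp966 (-1.12 ± 0.22), Zfp970 (-0.96 ± 0.18) and Zfp971 (-1.21 ± 0.31).

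**Figure D3:**
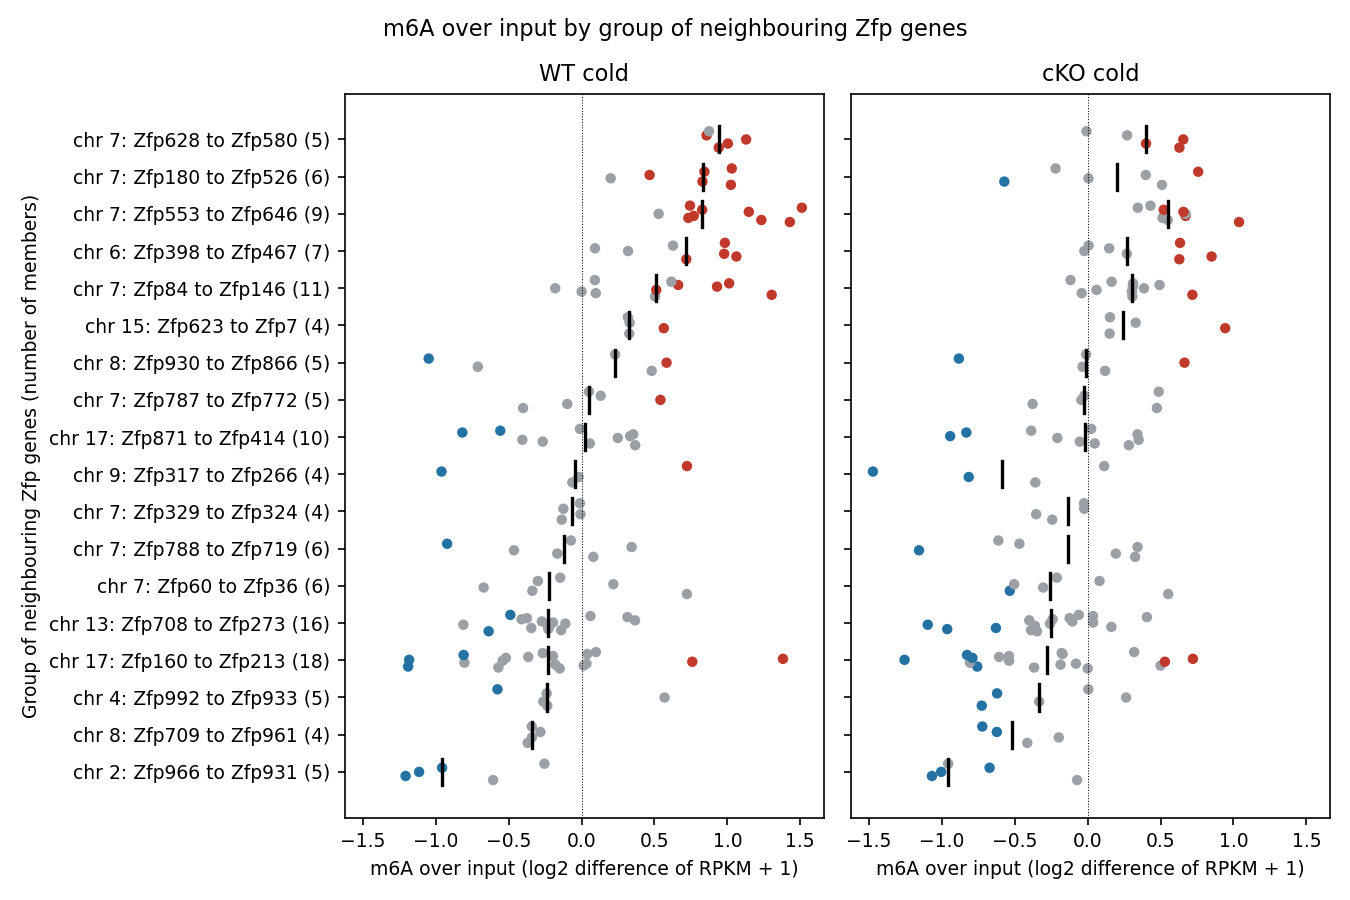
m6A over input in WT cold (left) and cKO cold (right) for the Zfp genes in groups of 4 or more neighbours, ordered by their WT cold median; each point is 1 gene, black bars are group medians, and red and blue mark adjusted p below 0.05, higher and lower. The chromosome 7 group from Zfp553 to Zfp646 (median 0.83) lies to the right and the chromosome 2 group (-0.96) to the left in both panels.

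The change of m6A over input between cKO cold and WT cold is the comparison that bears on METTL3. No Zfp gene passed limma's adjusted threshold in either direction, and neither did any other gene (0% called). At an unadjusted limma p under 0.05, 33 members (12.5%) were lower in cKO cold and 2 (0.758%) higher, beside 8.82% and 1.22% of all genes. With median-ratio scaling 15 members were lower and 4 higher at that level, and with quantile scaling 12 and 7. The member median was -0.20 and that of all genes -0.14. Median-ratio scaling moved these medians to 0.0016 and 0.0641, and quantile scaling to -0.004 and 0.0108. The lean to lower values in cKO cold thus depends on scaling. The labels do not state that replicate numbers pair libraries. When each precipitate was paired with the input of its condition and number, 4 members passed as lower, beside 3.04% of all genes. They were Zfp503 (-0.89 ± 0.13, limma adjusted p = 0.0167 with the pairing and 0.34 without), Zfp235 (-1.40 ± 0.25, 0.03 and 0.109), Zfp952 (-1.28 ± 0.23, adjusted p = 0.03) and Zfp109 (-1.25 ± 0.26, adjusted p = 0.0458).

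Zfp235 was the only member called higher in the precipitate in WT cold and lower in cKO cold. The cKO cold call (-0.57) was lost in 7 of 11 alternatives: at -0.26 with median-ratio scaling (limma adjusted p = 0.251), at -0.18 with quantile scaling (adjusted p = 0.412), on the compared libraries alone (adjusted p = 0.0808), and without any one of the 4 cKO libraries (-0.52 to -0.62, adjusted p from 0.0516 to 0.107). Its WT cold input was 0.718 and 0.599 RPKM and its cKO cold input 3.68 and 3.42, whereas its precipitate was 2.10 and 1.80, then 2.17 and 1.96. The precipitate values were thus alike and the input values apart. In Zfp503, WT cold input was 7.55 and 5.27 and cKO cold input 25.4 and 24.8, and precipitate 24.6 and 17.2, then 40.9 and 40.4, so both were higher in cKO cold and the input by more.

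Input RNA itself was higher in cKO cold than in WT cold in 50 of 264 members (18.9%) and lower in none (1 at an unadjusted p under 0.05), where 23.6% of all genes were higher and 2.92% lower. The share of members called was thus no larger than that of genes in general, and the medians were close (0.43 and 0.40). The common shift depends on scaling. With median-ratio scaling the median of all genes moved to 0.06 and that of the members to 0.08. There 12 of 264 members were higher and 2 lower (Zfp970 and Zfp566), beside 7.02% and 6.1% of all genes. With quantile scaling the member median was -0.07. Then 6 were higher and 5 lower (Zfp970, Zfp566, Zfp395, Zfp687 and Zfp954), beside 5.98% and 5.19% of all genes. Without WT cold replicate 2 there were 26 higher, without cKO replicate 1 19 and without cKO replicate 2 29; on the compared libraries alone there were 20. Fibroblast and preadipocyte markers (10 of 10 detected) summed to between 561.2 and 794.9 RPKM in WT cold input and to between 1478 and 3045 in cKO cold, and macrophage markers to between 134.3 and 143.8 and to between 534.1 and 1121. Their part in the higher Zfp levels was not tested.

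Zfp503, a transcriptional repressor (chr14:21983959-21989601), had the largest difference among the members that passed, with the input values given above: 1.83 ± 0.22 (limma adjusted p = 0.00511). It passed under all 12 alternatives, at 1.44 with median-ratio scaling and 1.35 with quantile scaling. Zfp90, a KRAB repressor, had 1.23 and 0.853 RPKM against 5.22 and 5.27, a rise of 1.62 ± 0.23. Zfp825 rose by 1.57 ± 0.33, Zfp185 by 1.53 ± 0.37, Zfp235 by 1.46 ± 0.22, Zfp992 by 1.40 ± 0.22, Zfp579 by 1.31 ± 0.24 and Zfp651 by 1.29 ± 0.22. Zfp825 lost the call without either cKO replicate (adjusted p = 0.0593 and 0.0634) and with quantile scaling (0.0645), and Zfp579 (0.0566) and Zfp651 (0.0578) with quantile scaling. Zfp185 lost its call under 5 of 11 alternatives, among them median-ratio scaling (1.21, limma adjusted p = 0.0787), WT cold replicate 2 left out (1.09, adjusted p = 0.0929) and cKO replicate 1 left out (1.12, adjusted p = 0.106).

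The 8 listed Zfp genes of adipocyte and preadipocyte biology gave 3 higher and none lower in cKO cold, where 23.6% of all genes were higher and 2.92% lower. Zfp423, which commits preadipocytes and restrains the thermogenic programme, had 15.8 and 16.4 RPKM at room temperature. WT cold mice had 11.9 and 9.20 and cKO cold mice 25.5 and 23.4. The cKO values were above all the others, and the rise over WT cold was 1.15 ± 0.17 (limma adjusted p = 0.00763; 0.0271 with median-ratio scaling). Zfp407, a cofactor of adipocyte gene expression, rose by 0.86 ± 0.20 and Zfp217, a regulator of adipogenesis, by 0.79 ± 0.20, and both lost the call with either scaling, on the compared libraries alone and without WT cold replicate 2 or either cKO replicate (Zfp407 0.67 and Zfp217 0.55 without the first). Zfp521, an inhibitor of adipogenesis, was at 5.26 and 1.66 against 10.2 and 6.45 RPKM (adjusted p = 0.077), and did not pass. Zfp467 (15.5 and 5.40 against 19.7 and 20.6), Zfp638 and Zfp385a did not pass either. Without WT cold replicate 1 all 4 passed: Zfp521 at 1.78, Zfp467 at 1.72, Zfp385a at 1.15 and Zfp638 at 0.73. Zfp516, an activator of Ucp1, was at 4.30 and 4.27 against 6.25 and 5.18 (0.34 ± 0.19, adjusted p = 0.208). It was higher in the precipitate in both conditions (0.97 ± 0.16 and 0.89 ± 0.16), as was Zfp217 (0.97 ± 0.25 and 0.77 ± 0.25), whose call was lost in 3 of 12 alternatives in each, with 0.55 (limma adjusted p = 0.0851) in WT cold without m6A replicate 1 and 0.62 (0.152) in cKO cold without m6A replicate 1. Zfp423 passed in WT cold (0.53 ± 0.18) and not in cKO cold. Its WT cold value was 0.30 (adjusted p = 0.274) without m6A replicate 1 and 0.36 (0.208) without input replicate 2, and in cKO cold it passed with median-ratio scaling (0.72, adjusted p = 0.00578), quantile scaling (0.0142) and the pairing of input and precipitate (0.0389). With that pairing Zfp521 also passed as higher in the precipitate in WT cold (0.79, adjusted p = 0.0027) and cKO cold (0.78, 0.00256), and Zfp467 in WT cold (0.63, 0.00198).

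Of the CCCH proteins, which bind AU-rich elements and recruit deadenylases, Zfp36l2 had 138.7 and 124.4 RPKM at room temperature. WT cold mice had 29.1 and 29.4 and cKO cold mice 66.2 and 58.3. The 3 groups did not overlap, and the rise from WT cold to cKO cold was 1.06 ± 0.13 (limma adjusted p = 0.00512). Zfp36l1 was at 68.5 and 49.5 against 90.0 and 67.3 (0.41 ± 0.20) and Zfp36 at 8.55 and 23.3 against 21.4 and 18.4 (0.46 ± 0.39); neither passed. Zfp36, an early response gene, thus differed more between the WT cold replicates than between the groups. In the WT cold precipitate, Zfp36l2 (0.68 ± 0.11) and Zfp36l1 (0.59 ± 0.19) were higher, and Zfp36 (0.72 ± 0.44) did not pass. Zfp36l1 lost the call without input replicate 2 (0.36, adjusted p = 0.223) or m6A replicate 1 (0.44, adjusted p = 0.191). When each precipitate was paired with its input, Zfp36 passed in WT cold (limma adjusted p = 0.000222) and, at 0.55, in cKO cold (0.000805), as did Zfp36l1 in cKO cold (0.42, 0.00136). In input, Zfp36 passed without WT cold replicate 2 (1.13, adjusted p = 0.0215).

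**Figure D4:**
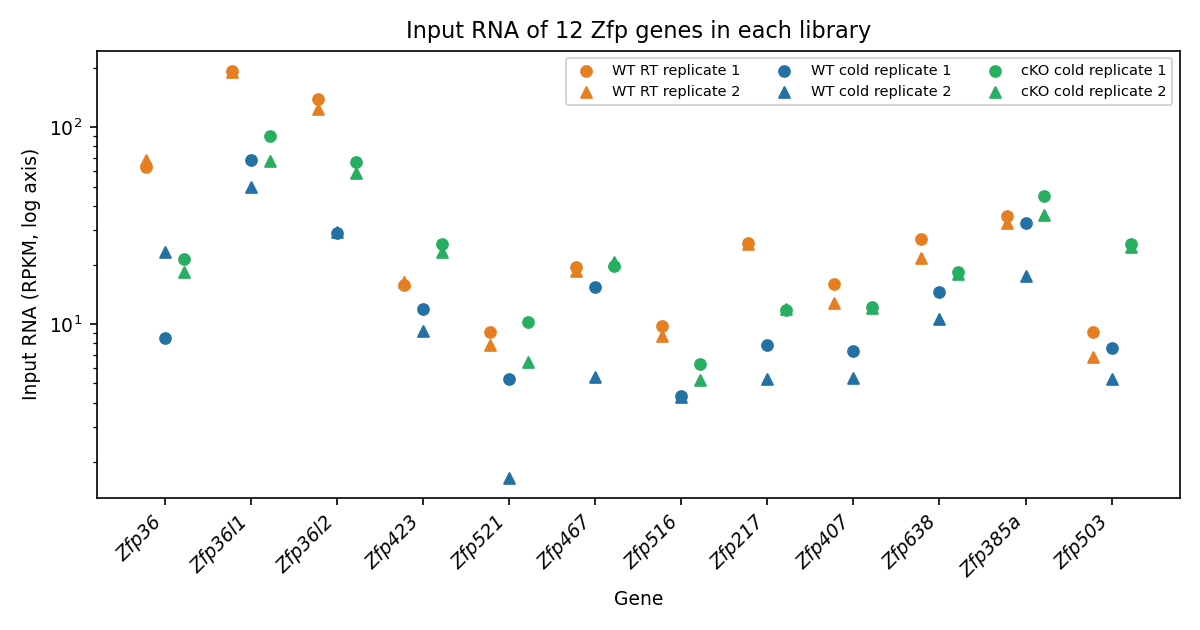
Input RNA in RPKM, on a log axis, of 12 Zfp genes in each of the 6 input libraries; colours are conditions and shapes replicate numbers. Zfp503 and Zfp423 lie highest in cKO cold, and the CCCH genes Zfp36, Zfp36l1 and Zfp36l2 lie highest in WT RT.

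None of the 11 listed Zfp genes of RNA, ribosome and ubiquitin pathways passed limma's adjusted threshold in cKO cold input (4 at an unadjusted p under 0.05, median 0.30). In that comparison 23.6% of all genes were higher and 2.92% lower. Zfp207 (0.59), Zfp638 and Zfp385a passed without WT cold replicate 1, and Zfp830 (0.64, adjusted p = 0.0392) with the filter of 2 RPKM. Zfp106, an RNA-binding protein, was nearly level over the 6 inputs, between 34.4 and 44.9 RPKM. Zfp207 (-0.95 ± 0.21 in WT cold) and Zfp706 (-0.93 ± 0.19) were lower in the precipitate, and Zfp91 (0.72 ± 0.15), Zfp622 (0.62 ± 0.16) and Zfp830 higher. Each of these passed in cKO cold too. Zfp326, of the complex that couples elongation to splicing, passed as higher in cKO cold (0.73 ± 0.17); in WT cold limma called it under median-ratio scaling (0.58, adjusted p = 0.0181), under quantile scaling (0.0186) and without input replicate 1 (0.0442). Zfp598, Zfp346 and the RNA-binding Zfp385a and Zfp638 passed in neither. Zfp346 passed in cKO cold with either scaling (0.77 and 0.82), as did Zfp385a (0.89 and 0.77). With the pairing Zfp385a passed in WT cold (0.43, limma adjusted p = 0.00627) and cKO cold (0.47, 0.00365), and Zfp106 passed as lower in cKO cold (-0.31, 0.0131).

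Of the 5 genes of imprinting and provirus silencing, none passed between cKO cold and WT cold input by limma (2 at an unadjusted p under 0.05, median 0.28), though Zfp568 did without cKO replicate 2 (1.15, adjusted p = 0.0345). Of all genes, 23.6% were higher and 2.92% lower in cKO cold input. Zfp568, a repressor of Igf2, was higher in the WT cold precipitate (1.01 ± 0.22) and Zfp932, a repressor of retroelements, lower (-0.87 ± 0.27). Zfp932 was at -0.49 (limma adjusted p = 0.211) without m6A replicate 2 and at -0.57 (0.173) without input replicate 1, and lost the call on the compared libraries alone (0.119); in cKO cold it passed with the pairing (-0.52, 0.0394) and under none of its other alternatives. Zfp568 passed in cKO cold with either scaling (0.65 and 0.70) and without cKO input replicate 1 (0.62). Zfp445, a guardian of imprints, was lower in the cKO cold precipitate (-0.34 ± 0.12, limma adjusted p = 0.0443), a direction that turned to 0.05 with median-ratio scaling; it lost the call in 6 of 12 alternatives. Zfp809 and Zfp708 passed in neither, though Zfp708 passed as higher in WT cold with quantile scaling (0.57, adjusted p = 0.0402). The 10 general and promoter-binding factors gave 2 higher in cKO cold input, Zfp592 (0.55 ± 0.14) and Zfp532 (0.77 ± 0.22), which belong with Zfp687 to the Z3 module, and both lost the call with either scaling (Zfp592 0.15 and 0.10, Zfp532 0.39 and 0.28), on the compared libraries alone and without WT cold replicate 2 or either cKO replicate. The 2 called in input (20%) stand beside 23.6% of all genes higher there. In the WT cold precipitate 5 of the 10 (50%) were higher and none lower, beside 13.7% and 25.6% of all genes. The 5 were Zfp281, Zfp219, Zfp263, Zfp592 and Zfp532. Zfp263 was at 0.33 (limma adjusted p = 0.29) without input replicate 2, and it, Zfp281 (0.53) and Zfp219 (0.54) lost the call without m6A replicate 1. Zfp143, Zfp148, Zfp384 and Zfp335 passed in no tested comparison as fitted, though with either scaling Zfp148 passed as higher in the WT cold precipitate (0.43 in each) and Zfp335 in that of cKO cold (0.71 and 0.72).

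The partners through which KRAB proteins act were listed apart. Of 18, 6 were higher in cKO cold input (Trim28, Setdb1, Daxx, Dnmt1, Uhrf1 and Morc3) and none lower, or 33.3%, beside 23.6% and 2.92% of all genes, with a median of 0.46 beside 0.40. With median-ratio or quantile scaling, tried on this list after its values were seen, none passed, and the median was 0.06 and 0.02. Trim28, the KRAB corepressor, was at 21.7 and 14.6 RPKM against 29.4 and 27.4 (0.64 ± 0.19, limma adjusted p = 0.0493; 0.23 and 0.25 with the scalings). Its precipitate was far lower, at 5.58 and 6.66 in WT cold (-1.41 ± 0.19).

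Ribosome footprints report on mRNA in translation. Over the 262 members tested, the median log2 difference of footprints and input was -0.35 and -0.29 in the WT cold libraries and -0.62 and -0.59 in cKO cold, where all genes tested gave between 0.59 and 0.69. Footprint and input RPKM are scaled separately by library, so the sign is relative. Markers of other cells also differed between the library kinds. T and B cell markers summed to between 394.8 and 549.0 RPKM in WT cold footprints against 2.01 to 2.26 in WT cold input, and to between 402.0 and 1180 against 6.97 to 10.8 in cKO cold. Macrophage markers summed to between 2879 and 3461 against 134.3 to 143.8 in WT cold, and to between 3847 and 6864 against 534.1 to 1121 in cKO cold. Their part in the gap between Zfp genes and other genes was not tested. Footprints were higher in the libraries labelled cKO cold, in which Mettl3 itself was not lower, in 4 members (1.53%) and lower in none (2 at an unadjusted p under 0.05), beside 5.61% and 1.54% of all genes. Zfp503 footprints were at 7.36 and 5.36 RPKM in WT cold and at 28.0 and 24.2 in cKO cold, a difference of 1.89 ± 0.27 (limma adjusted p = 0.0116) on 36 and 20 against 119 and 125 reads. Zfp185 went from 4.39 and 2.16 to 25.9 and 15.3 (2.34 ± 0.46), Zfp787 from 4.55 and 2.75 to 20.1 and 11.3 (1.82 ± 0.36) and Zfp874a from 0.298 and 0.391 to 2.74 and 1.98 (1.31 ± 0.32).

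The groups did not overlap in any of the 4, but Zfp874a rests on 1 and 1 against 8 and 7 reads and has a close copy, Zfp874b. With median-ratio or quantile scaling 1 passed, Zfp503. None passed on the compared libraries alone or without WT cold replicate 2 or cKO replicate 1, and 7 did without either other library. Zfp787 rose in footprints while its input was at 4.01 and 5.68 against 6.89 and 5.95 RPKM and did not pass (0.36 ± 0.21). The change of footprints over input passed in no member, and 0% of all genes were called. At an unadjusted limma p under 0.05, 1 member (0.382%) was higher and 9 (3.44%) lower. Of all genes, 1.53% were higher and 2.07% lower at that level. The member median was -0.16 and that of all genes -0.0003.

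**Figure D5:**
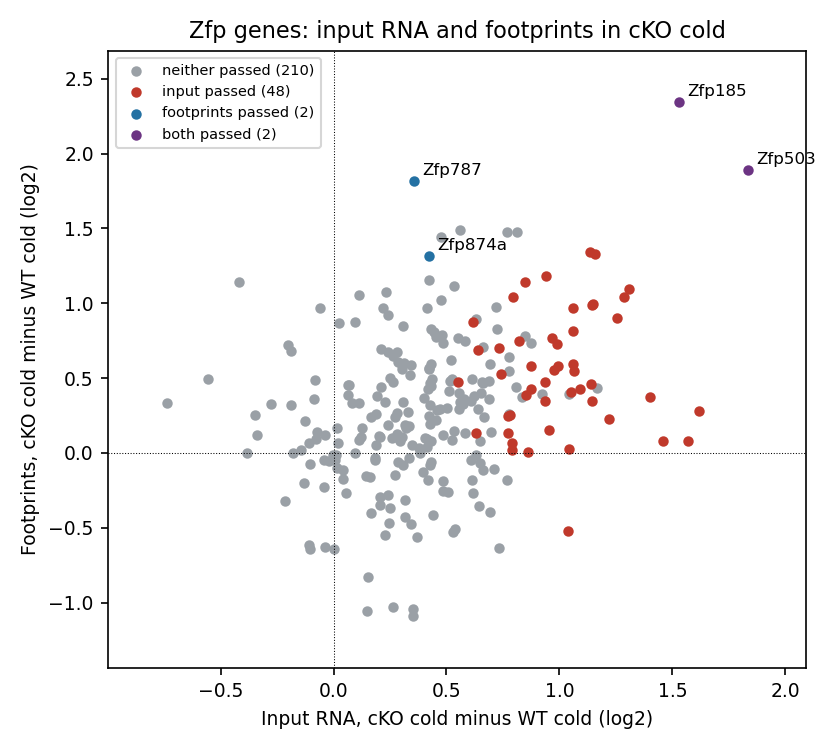
Difference between cKO cold and WT cold in footprints (vertical) against that in input RNA (horizontal), each in log2(RPKM + 1), for the 262 Zfp genes tested; colours mark which passed adjusted p below 0.05. Zfp503 and Zfp185 passed in both, Zfp787 and Zfp874a in footprints only.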

How the data were processed

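The values are the authors' deposited RPKM, 1 column per library, for 16 libraries in 8 groups of 2. The submitters' processing notes name HISAT2 and the mm10 build; the counting tool, gene lengths and filters are not given in the sources used here. limma 3.58.1 (R 4.3.3, trend) was fitted to log2(RPKM + 1) over all genes with at least 1 RPKM in 2 libraries of the fit, with Benjamini-Hochberg adjustment and a threshold of 0.05; the fits were tested on simulated data. Input fits held all input libraries and m6A fits all input and m6A libraries, so WT RT libraries shared in the spread of the cold tests. Fits on the compared libraries alone leave them out. Footprint fits held cold libraries only. Whole reads recovered from the RPKM steps give depth and replicate spread only. Over well-covered genes, that spread (chi-square per degree of freedom) was 6.52 in WT RT input, 18.2 in WT cold input and 14.7 in cKO cold input. No value column was left unused (0). Named genes were, per contrast, the 8 called members with the largest difference and no overlap between groups, the listed genes, the 3 most abundant and the 3 on each side of the threshold; the chromosome 2 group, the other neighbour groups and the members behind small counts under the pairing or another scaling were chosen after their values were seen. The members and lists were chosen with earlier results of these data known. An item of the marker lists is not reported here and is left out of the sums. Promoters were aligned with Biopython 1.88, scoring 1 per match.

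Deviations from the group means were correlated over 8464 genes. Same-numbered libraries of 1 condition correlated at 0.30 to 0.66, and those across conditions at -0.10 to 0.08. The numbers may thus pair libraries within a condition, but the labels do not state it. With 2 libraries per group, the correlations cannot tell a common sample from other shared differences. Fits with the pairing therefore rest on an assumption.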

Additional observations from a re-analysis of the deposited data

How the results depend on the processing

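The higher input in cKO cold (50 Zfp genes) gave 12 higher with median-ratio scaling, 6 with quantile scaling and 20 on the compared libraries alone, and lower counts of 2 and 5 with the scalings; leaving out 1 library each gave 19 to 74 higher and 0 to 1 lower. For m6A over input in WT cold, the 2 RPKM filter left 11 lower and the compared libraries alone 40 higher; leaving out 1 library gave 44 to 71 higher and 21 to 27 lower. In cKO cold, median-ratio scaling gave 84 higher and 21 lower, quantile scaling 93 and 17, and the 2 RPKM filter 19 lower; leaving out 1 library gave 26 to 38 higher and 29 to 40 lower. The cause was not tested, except that the 2 RPKM filter tests 126 members only. The replicate block gave 4 lower for the change of m6A over input, and 9 higher for footprints, where it joins libraries of both conditions, whose numbers did not pair them. Among single genes, it brought 20 values past the threshold and lost 1, Zfp592 in input (adjusted p = 0.0512). Footprints gave 1 higher with no filter, 1 with each scaling, 0 on the compared libraries alone and 0 to 7 without 1 library. Of the single genes, Zfp445 in the cKO precipitate reversed to 0.0499 with median-ratio scaling. The calls held in all alternatives for 21 of 31 named genes in WT cold m6A, 18 of 30 in cKO cold m6A, 6 of 19 in input and 0 of 4 in footprints. Leaving out a library assumes that the lone sample varies like the other groups. A gap of 500 kb, chosen after seeing the data, put 103 members in 13 neighbour groups of 4 or more. The chromosome 2 group was not among them and depends on the 1 Mb gap. Protein features were not run. Depth limits footprints most.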

Other observations

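Other zinc finger families leaned the same way in the precipitate. Of 57 tested Zbtb, Zscan and Zkscan genes, which pair zinc fingers with BTB or SCAN domains, 17 were higher and 3 lower in m6A over input in WT cold (limma adjusted p), with a median of 0.43, where 13.7% and 25.6% of all genes were. In cKO cold 12 were higher and 7 lower, with a median of 0.23, beside 11.4% and 35.2% of all genes. In input RNA 7 of 56 (12.5%) were higher in cKO cold and 0 lower, beside 23.6% and 2.92% of all genes. Of the 121 Zfp rows under the room-temperature threshold, 73 could be tested for m6A over input. In WT cold 5 (6.85%) were higher and 2 (2.74%) lower (median 0.16), beside 13.7% and 25.6% of all genes. No difference between these families and the Zfp genes was tested.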
